A study of Homo sapiens with 6 samples.

Results

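The genes for the proteins of the mitochondrial ribosome were followed in BT474 cells transfected with either of 2 variants of the long noncoding RNA NR2F1-AS1. All probes whose gene name begins with MRPL or MRPS and a number were taken, which gave 99 of 58201 probes on the array and 79 of 43317 gene names. Of these names, 48 belong to proteins numbered in the large subunit and 29 to proteins numbered in the small subunit. The other 2 are MRPL23-AS1, an antisense RNA, and MRPS31P5, a pseudogene. All 77 protein genes had at least 1 probe bright enough to test, and 3 of the 99 probes, for MRPS18C, MRPL43 and MRPS27, were too dim.

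BT474 is an established line of luminal breast carcinoma cells that carry the estrogen receptor and amplified ERBB2. Control cells received empty pcDNA3.1, BT474-Var1 cells received pcDNA3.1 with variant 1 of NR2F1-AS1, and BT474-Var4 cells received pcDNA3.1 with variant 4. The paper describes stable transfection and antibiotic selection of variant and control cells. It reports that cells with a variant dwindled to a few, from which colonies later grew. The outgrowth of surviving cells and the variant thus cannot be told apart. All 3 populations were BT474 cells grown in RPMI-1640 medium with serum. RNA of each population was hybridized to 2 one-color arrays, named A and B, and nothing states that the 2 came from separate cultures, so the p-values measure only the spread between these arrays, which may be technical. The study's methods name a backbone with eGFP for variant 4 and a hygromycin backbone for variant 1, so the backbone and the variant cannot be told apart where they differ, and which empty plasmid the Control arrays stand for is not stated. The arrays of BT474-Var1 cells lay in slide column 2 and the other 4 in slide column 1, so the column and the BT474-Var1 population cannot be told apart. The Control arrays lay in slide rows 1 and 2 and those of both variant populations in rows 3 and 4. In both comparisons with Control, the row and the variant thus cannot be told apart either.

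Mitochondria carry their own ribosomes, which translate the few proteins encoded by mitochondrial DNA, all of them parts of the respiratory chain and ATP synthase. The ribosomal RNAs come from mitochondrial DNA, while every protein of this ribosome is encoded in the nucleus, made in the cytosol and imported. The small subunit binds the messenger RNA and decodes it, and the large subunit joins the amino acids and sends the new chain to the inner membrane.

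All 10 luminal markers (among them ESR1, GATA3, KRT8, KRT18 and ERBB2) were well above background on all 6 arrays. Of 13 markers of basal, stromal, blood and endothelial cells on the array, 8 were also well above background on all 6. On a linear scale, where the 75th percentile of an array is 1, their summed level was 7.24 to 7.64 in Control, 7.14 to 7.17 in BT474-Var1 and 9.6 to 9.75 in BT474-Var4 cells, against 2090 to 2730 for the luminal markers, and KRT5 and COL1A2 were above background on none. The part of these signals in the results below was not tested. Of 4 probes for NR2F1-AS1, 3 were higher in BT474-Var1 cells and 2 in BT474-Var4 cells than in Control.

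A level below is the log2 signal of a probe minus the 75th percentile of its array, and a change is a difference of 2 group means of such levels, so a change of 1 is 2-fold. One probe stood for each gene, the tested probe with the highest mean, and a gene was called where limma gave an adjusted p under 0.05. The median standard deviation between the 2 arrays of a group was 0.0369 over the 77 genes and 0.0856 over all 24619 tested genes. The members were also brighter, and 100% of them had a mean level above the median of all tested genes. On Control replicate A the median level was 4.87 for the large and 4.8 for the small subunit, against -0.08 for all tested genes. The shares of all tested genes given below thus come mostly from dimmer probes, and genes of like brightness were not compared.

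The probes with the widest rises from BT474-Var1 to BT474-Var4 cells among those whose sequence reads through without a stop codon in only 1 of the 3 forward frames are shown here, 5′ to 3′, to let a reader see which stretch of the transcript was measured. They are 60 bases long and are placed on hg19, MRPL18 at chr6:160219094-160219153 (plus strand), MRPS15 at chr1:36921894-36921953 (minus strand), MRPS17 at chr7:56022855-56022914 (plus strand) and MRPS7 at chr17:73258756-73258930 (plus strand). The MRPS7 probe spans 175 genomic bases and so lies across an intron.
MRPL18: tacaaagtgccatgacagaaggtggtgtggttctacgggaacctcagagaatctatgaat
MRPS15: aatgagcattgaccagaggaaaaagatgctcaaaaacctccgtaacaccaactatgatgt
MRPS17: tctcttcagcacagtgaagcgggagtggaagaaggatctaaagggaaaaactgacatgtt
MRPS7: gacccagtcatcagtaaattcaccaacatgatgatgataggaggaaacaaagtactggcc

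The first comparison asked how the genes stood in BT474-Var1 cells relative to Control. More genes of both subunits were lower than higher. In the large subunit 15 of 48 genes fell and 1 rose, with a median change of -0.16, and in the small subunit 10 of 29 fell and 2 rose, with a median of -0.14. Over all tested genes 20.7% were called lower and 14.2% higher, and the median change was -0.05, where the members' shares were 32.5% lower and 3.9% higher. In bulk RNA, fewer cells of a kind and less RNA per cell cannot be told apart. No member reached 2-fold with an adjusted p under 0.05, a threshold passed by 4.0% of all genes.

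Among the large subunit genes that fell, MRPL43 stood at 3.44 and 3.45 in Control, 2.9 and 2.8 in BT474-Var1 cells and 3.18 and 3.28 in BT474-Var4 cells. The BT474-Var1 arrays lay below all others, and the change from Control was -0.59 ± 0.07 (SE, n = 2 per group, adjusted p = 0.0067). MRPL11, a protein of the stalk base where translation factors dock, read 5.0 and 4.92 in Control, 4.39 and 4.36 in BT474-Var1 and 4.64 and 4.65 in BT474-Var4 cells. The groups did not overlap, and the BT474-Var1 change was -0.58 ± 0.05 (adjusted p = 0.00502). MRPL27 read 6.3 and 6.27 in Control against 5.71 and 5.73 in BT474-Var1 cells, a change of -0.57 ± 0.05 (adjusted p = 0.00459). In each of these genes the BT474-Var1 arrays lay below every Control array. MRPL18, a relative of the bacterial 5S-rRNA-binding protein L18, fell by 0.52 on the log2 scale (adjusted p = 0.00591), and its arrays are given with the difference between the variants.

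In the small subunit, MRPS6 read 5.68 and 5.65 in Control and 5.12 on both BT474-Var1 arrays, a change of -0.54 ± 0.05 (adjusted p = 0.00473). MRPS7, a protein of the head of the small subunit, read 3.49 and 3.4 in Control and 2.95 and 2.9 in BT474-Var1 cells, a change of -0.52 ± 0.06 (adjusted p = 0.00663). In both, each BT474-Var1 array lay below every Control and BT474-Var4 array. MRPS15 and MRPS17 fell by 0.38 and 0.41 on the log2 scale (adjusted p = 0.00863 for each).

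The 3 genes called higher in BT474-Var1 cells were MRPS16, MRPL2 and MRPS18B. MRPS16 read 7.68 and 7.7 in Control, 8.17 and 8.08 in BT474-Var1 and 7.67 and 7.52 in BT474-Var4 cells, and its change was 0.43 ± 0.08 (adjusted p = 0.0162). MRPL2, part of the rRNA-bound core of the large subunit, read 1.24 and 1.21 in Control against 1.6 and 1.59 in BT474-Var1 cells, a change of 0.37 ± 0.06 (adjusted p = 0.0117). In both genes the BT474-Var1 arrays lay above all the others, and the BT474-Var4 changes from Control did not pass the test (adjusted p = 0.402 and 0.113). MRPS18B changed by 0.29 ± 0.06 (adjusted p = 0.0257). A second tested probe did not show the rise of 2 of them: the other MRPS16 probe changed by 0.03 (adjusted p = 0.799) and the other MRPS18B probe by -0.12 (adjusted p = 0.523).

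Both probes of MRPL46 fell, by 0.57 and 0.46 on the log2 scale (adjusted p = 0.00528 and 0.00816), while of 3 probes of MRPL19 those at -0.43 and -0.46 were called (adjusted p = 0.00774 and 0.00696) and the one at -0.20 was not (adjusted p = 0.0743). Of 14 member genes with several tested probes, 2 had every probe called in this comparison, 8 had some called and 4 none, and no gene had probes called in opposite directions. The excess of lower calls depended on how the arrays were put on one scale. After quantile normalization 15 members were lower and 8 higher, with medians of -0.05 in the large and -0.01 in the small subunit. These were 19.5% and 10.4% of the members, beside 17.7% and 15% of all tested genes, whose median was -0.04. The members' share called lower thus lay near that of all tested genes. Under this scaling 15 of the 25 falls and all 3 rises stayed called. With every probe tested, dim ones included, 3 members were lower and 0 higher. Without 1 array the falls numbered between 11, without Control replicate A or B, and 21, without either BT474-Var4 array, and the rises between 0, without BT474-Var1 replicate A or either Control array, and 2. The named falls of MRPL11, MRPL16, MRPL18, MRPL27, MRPL43, MRPS6 and MRPS7 stayed called without each of the 6 arrays in turn. The falls that stayed called under quantile, cyclic loess, normexp and median scaling alike included MRPL11, MRPL18, MRPL27, MRPL43, MRPS6 and MRPS7.

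**Figure D1:**
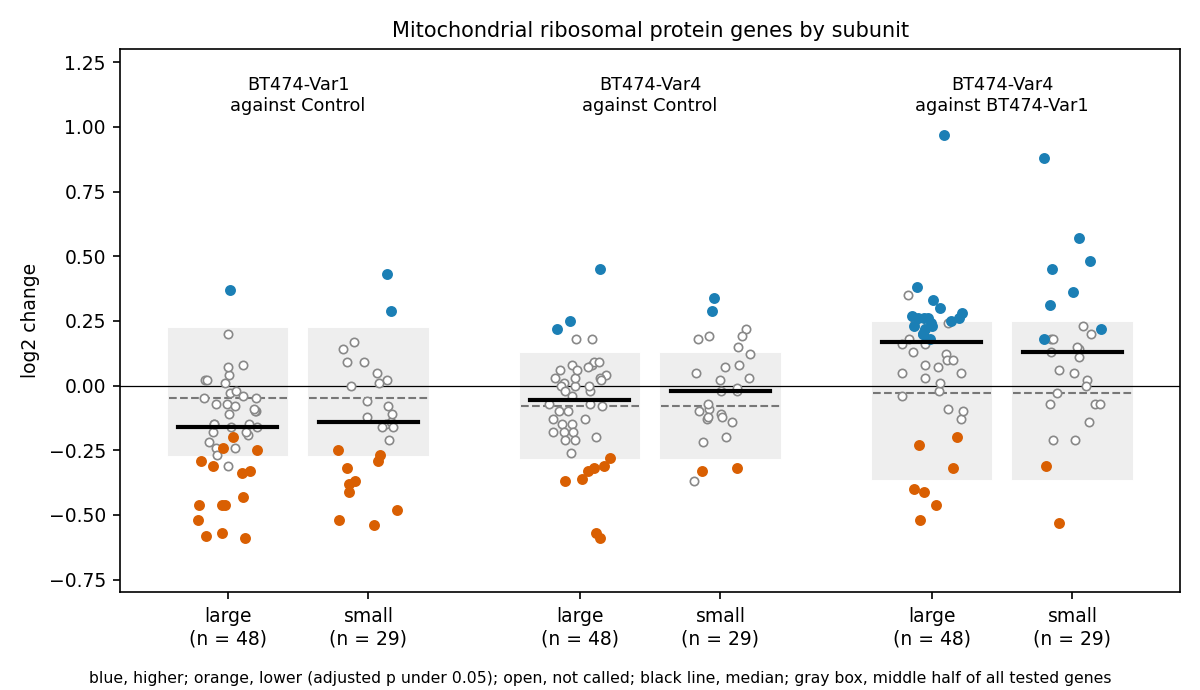
Log2 change of each of the 77 genes (points), by subunit name and comparison, with the median of the members (black line) and the interquartile range and median of all 24619 tested genes (gray box and dashed line). Most called members are below 0 in BT474-Var1 against Control and above 0 in BT474-Var4 against BT474-Var1, and MRPL18 at 0.97 and MRPS6 at 0.88 stand above all other points.

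In BT474-Var4 cells relative to Control 15 of the 77 members were called, in both directions. In the large subunit 8 of 48 genes were lower and 3 higher, with a median change of -0.06, and in the small subunit 2 of 29 were lower and 2 higher, with a median of -0.02. Of all tested genes 14.6% were lower and 10.2% higher, with a median change of -0.08, so the members' shares of 13.0% lower and 6.49% higher lay near or below the background. No member passed 2-fold with an adjusted p under 0.05, against 3.23% of all genes. This comparison uses the same Control arrays as the first.

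The falls were led by MRPL16 and MRPL14. MRPL16, whose family sits near the peptidyl transferase center, read 6.29 and 6.25 in Control, 5.85 and 5.78 in BT474-Var1 and 5.69 and 5.68 in BT474-Var4 cells, and its change in BT474-Var4 cells was -0.59 ± 0.05 (adjusted p = 0.00654). MRPL14 read 3.85 and 3.88 in Control, 3.56 and 3.68 in BT474-Var1 and 3.3 and 3.29 in BT474-Var4 cells, a change of -0.57 ± 0.06 in BT474-Var4 cells (adjusted p = 0.00861). Both genes were also lower in BT474-Var1 cells than in Control, MRPL16 by -0.46 (adjusted p = 0.00714) and MRPL14 by -0.24 (adjusted p = 0.0396). After quantile normalization MRPL16 stayed called there at -0.35 (adjusted p = 0.0112), and MRPL14 did not, at -0.12 (adjusted p = 0.205). The other leading falls were MRPL27 at -0.37, MRPL4 at -0.36, MRPS12 at -0.33 and MRPL30 at -0.33 (adjusted p of 0.0129, 0.0154, 0.0196 and 0.021). MRPS12 is the mitochondrial counterpart of the bacterial decoding-center protein S12.

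The 5 genes called higher were MRPL18, MRPS6, MRPS10, MRPL39 and MRPL48. MRPL18 read 5.32 and 5.29 in Control and 5.8 and 5.72 in BT474-Var4 cells, a change of 0.45 ± 0.05 (adjusted p = 0.011), and MRPS6 went from 5.68 and 5.65 to 6.0 on both arrays, a change of 0.34 ± 0.05 (adjusted p = 0.0146). These 2 were lower in BT474-Var1 cells, so each variant population lay on its own side of Control. MRPS10 read 3.81 and 3.85 in Control against 4.1 and 4.14, MRPL39 3.47 and 3.5 against 3.73 and 3.75, and MRPL48 5.39 on both arrays against 5.6 and 5.61. Their changes were 0.29, 0.25 and 0.22 (adjusted p = 0.0393, 0.0312 and 0.0451), and the BT474-Var4 arrays of all 3 lay above every other array.

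With every probe tested, dim ones included, limma called 0 members in BT474-Var4 cells. In the limma fit with dim probes filtered out, 34 of the 77 members had an unadjusted p under 0.05. So did 10063 of all 24619 tested genes. None of the 13 calls among the named genes in BT474-Var4 cells held in every fit that left out 1 array. All 13 were lost without Control replicate A and 12 without Control replicate B, where MRPL16 was the exception, and MRPL16 had an adjusted p of 0.051 without replicate A. Without BT474-Var4 replicate A 11 were lost, and without replicate B 10. Among the scalings, all 5 rises and 8 of the 10 falls stayed called after quantile normalization, where 10 members were higher and 8 lower in all. These were 13.0% and 10.4% of the members, beside 10.9% and 11.2% of all tested genes.

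**Figure D2:**
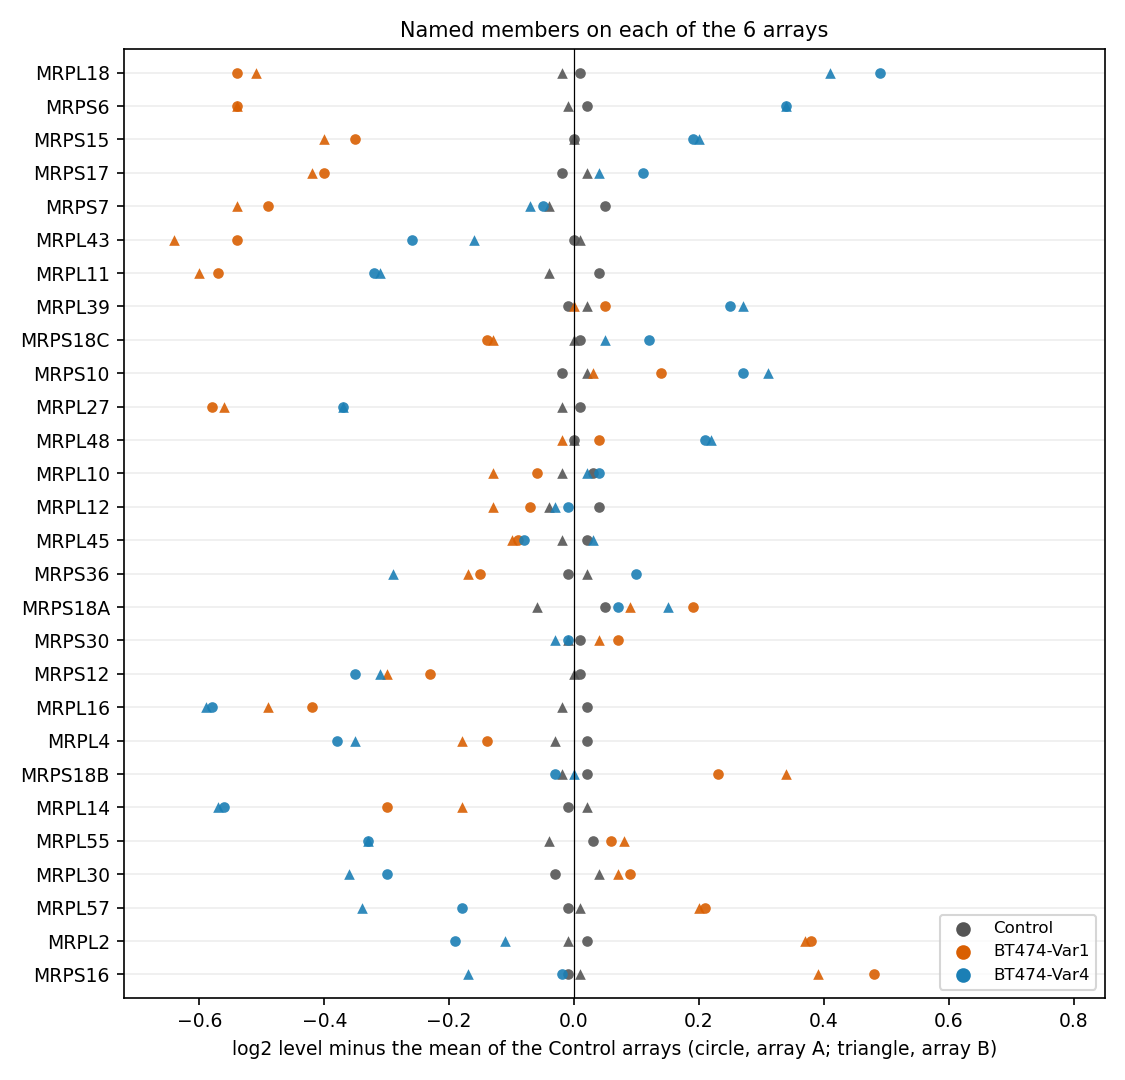
Log2 level of each of the 28 named genes on each array, minus the mean of the 2 Control arrays (horizontal axis), with Control in gray, BT474-Var1 in orange and BT474-Var4 in blue. MRPL18 and MRPS6 at the top have BT474-Var1 arrays near -0.5 and BT474-Var4 arrays above 0.3, while MRPL2 and MRPS16 at the bottom have only their BT474-Var1 arrays raised.

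The 2 variant populations were then compared with each other, where the Control arrays add only to the estimate of the spread. Of the large subunit genes 18 of 48 were higher and 7 lower in BT474-Var4 cells relative to BT474-Var1 cells, with a median difference of 0.17, and of the small subunit genes 8 of 29 were higher and 2 lower, with a median of 0.13. All tested genes split evenly, with 20.9% higher and 21.0% lower and a median of -0.03. The members' share called higher was 33.8% and the share called lower 11.7%. The threshold of 2-fold with an adjusted p under 0.05 was passed by 6.95% of all genes and by no member.

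MRPL18 and MRPS6 had the widest differences. MRPL18 read 4.77 and 4.8 in BT474-Var1 and 5.8 and 5.72 in BT474-Var4 cells, with the Control arrays between them at 5.32 and 5.29. The difference was 0.97 ± 0.05 on the log2 scale (SE, n = 2 per group, adjusted p = 0.00148). MRPS6 read 5.12 on both BT474-Var1 arrays and 6.0 on both BT474-Var4 arrays, with Control again between, and differed by 0.88 ± 0.05 (adjusted p = 0.00141). The 3 groups were fully separated in both genes.

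Behind them came MRPS15 with a difference of 0.57 ± 0.05 (adjusted p = 0.00295), MRPS17 with 0.48 ± 0.05 (adjusted p = 0.00471), MRPS7 with 0.45 ± 0.06 (adjusted p = 0.0068) and MRPL43 with 0.38 ± 0.07 (adjusted p = 0.0143). MRPS15 read 3.94 on both Control arrays, 3.59 and 3.54 in BT474-Var1 and 4.13 and 4.14 in BT474-Var4 cells. MRPS17 read 4.76 and 4.8 in Control, 4.38 and 4.36 in BT474-Var1 and 4.89 and 4.82 in BT474-Var4 cells. In these genes the BT474-Var1 arrays lay below all others. The BT474-Var4 changes from Control were 0.19 (adjusted p = 0.0564) for MRPS15 and 0.07 (adjusted p = 0.358) for MRPS17. Both BT474-Var4 arrays of MRPS15 lay above Control. That rise was called after quantile, cyclic loess and normexp processing (adjusted p = 0.0445, 0.0369 and 0.00704), but not after median scaling (adjusted p = 0.0541).

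In the opposite direction, MRPS16 differed by -0.53 ± 0.08 (adjusted p = 0.00845) and MRPL2 by -0.52 ± 0.06 (adjusted p = 0.00434), both lower with variant 4. The second MRPS16 probe differed by -0.15 ± 0.08 and was not called (adjusted p = 0.181). MRPL57 read 2.16 and 2.18 in Control, 2.38 and 2.37 in BT474-Var1 and 1.99 and 1.83 in BT474-Var4 cells, a difference of -0.46 ± 0.07 (adjusted p = 0.0109). Its group means lay on either side of Control, but neither change from Control passed the threshold (adjusted p = 0.103 and 0.0641). MRPL30 and MRPL55 differed by -0.41 ± 0.06 (adjusted p = 0.00761) and -0.40 ± 0.05 (adjusted p = 0.00722), and MRPL14 by -0.32 ± 0.06 (adjusted p = 0.0161). In MRPL30 and MRPL55 it was the BT474-Var4 arrays that lay apart: MRPL55 read 5.59 and 5.52 in Control, 5.62 and 5.64 in BT474-Var1 and 5.23 on both BT474-Var4 arrays.

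**Figure D3:**
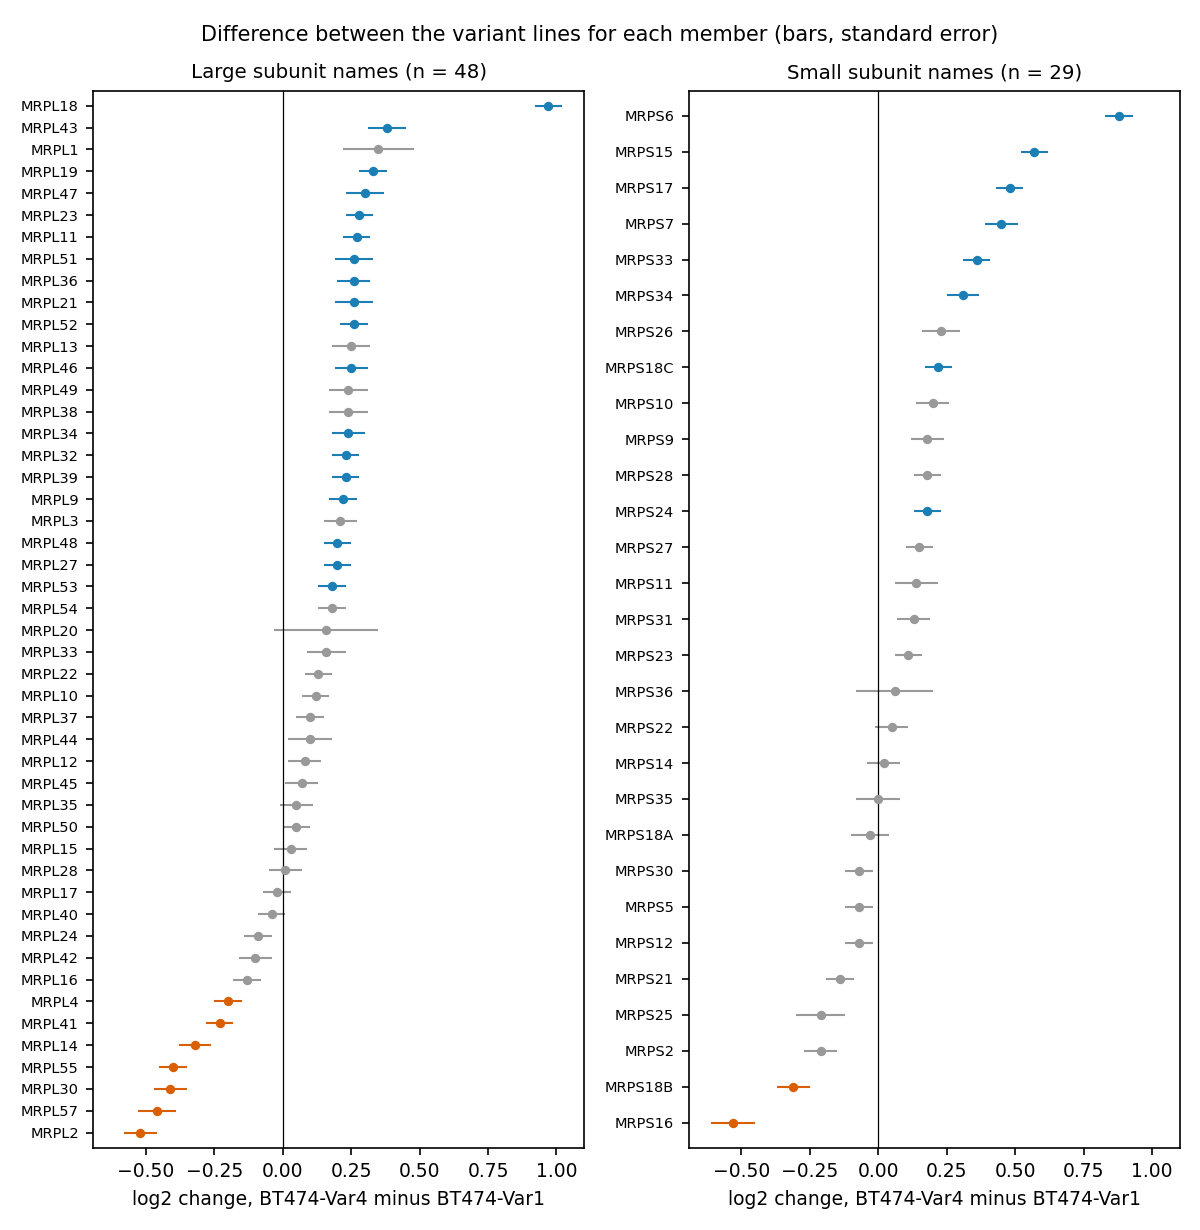
Difference in log2 level between BT474-Var4 and BT474-Var1 cells for each gene, with its standard error, in the order of the difference within each subunit name. Blue genes were called higher in BT474-Var4 cells (18 large, 8 small), orange genes lower (7 large, 2 small), and gray genes were not called.

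With every probe tested, dim ones included, 4 members were higher and 1 lower. Between 7 and 12 members were higher without 1 array, 7 without BT474-Var1 replicate B and 8 without BT474-Var1 replicate A or BT474-Var4 replicate A, and between 5 and 7 lower. MRPL18, MRPS6, MRPS15, MRPS17, MRPS7, MRPS16, MRPL2, MRPL30 and MRPL55 stayed called without each array in turn. The count of higher calls in this comparison also rested on the scaling. After quantile normalization 13 members (16.9%) were higher and 14 (18.2%) lower, with medians of 0.10 and 0.04, beside 20.4% and 18.7% of all tested genes. Cyclic loess normalization left out MRPL38 for its missing value. It gave 11 (14.5%) higher and 12 (15.8%) lower, with medians of 0.08 and 0.04, beside 19.8% and 19.2%. Normexp background correction gave 45 (58.4%) higher and 9 (11.7%) lower, with medians of 0.21 and 0.18, beside 27.0% and 31.9%. MRPL18, MRPS6, MRPS15, MRPS17, MRPS7, MRPL43, MRPL19, MRPL23, MRPL52, MRPS33 and MRPS34 stayed called higher under all 4 other scalings, and MRPL2, MRPL14, MRPL30, MRPL41, MRPL55, MRPL57, MRPS16 and MRPS18B stayed called lower. No called member of the 3 comparisons changed sign under these scalings. A second, dimmer MRPL52 probe differed by -0.11 between the variants and was not called (adjusted p = 0.255). That probe was called lower in BT474-Var4 cells than in Control, by -0.31 (adjusted p = 0.0351). Of the 14 genes with several tested probes, 2 had every probe called between the variants, 9 some and 3 none. In BT474-Var4 cells against Control it was 0, 2 and 12.

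**Figure D4:**
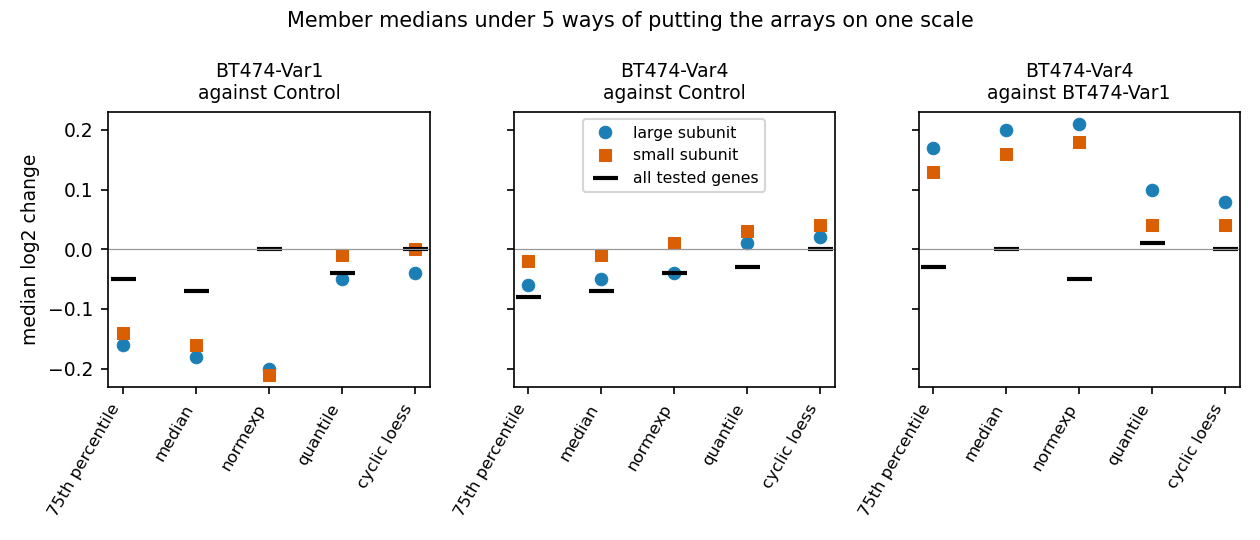
Median log2 change of the large subunit genes (circles), the small subunit genes (squares) and all tested genes (bars) in each comparison, under 5 ways of putting the arrays on one scale. In BT474-Var1 against Control the members lie between -0.14 and -0.21 under the first 3 and between -0.05 and 0 under quantile and cyclic loess normalization.

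The probes of MRPS6, MRPS15, MRPS23 and MRPL22 were printed 10 times on each array, which shows the error within an array. The standard deviation between spots of 1 probe on 1 array was 0.0309 to 0.105 on the log2 scale. For MRPS6 the spots ranged from 5.58 to 5.74 in Control, from 4.98 to 5.22 in BT474-Var1 and from 5.94 to 6.07 in BT474-Var4 cells, so no spot of one group reached another group. For MRPS15 the spots ranged from 3.39 to 3.65 in BT474-Var1, from 3.87 to 4.02 in Control and from 4.05 to 4.2 in BT474-Var4 cells, again without overlap. For MRPL22, a protein of the exit tunnel, and MRPS23 the spots of the groups overlapped. MRPL22 was called in no comparison. MRPS23 read 3.23 and 3.2 in Control and 2.95 and 2.98 in BT474-Var1 cells, a change of -0.25 ± 0.05 (adjusted p = 0.025), and -0.12 (adjusted p = 0.143) after quantile normalization.

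**Figure D5:**
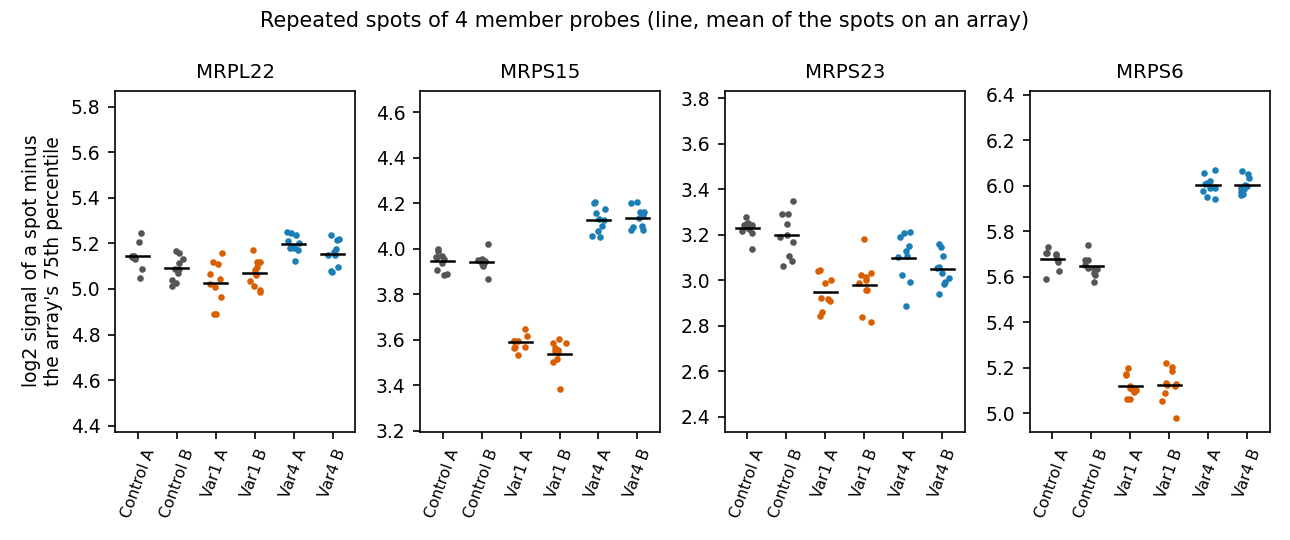
Log2 signal of each repeated spot of 4 member probes minus the 75th percentile of its array, by array, with the mean of the spots as a line and the same height of axis for each gene. The spots of MRPS6 and MRPS15 fall into 3 bands by group that do not overlap, and those of MRPL22 and MRPS23 overlap.

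For some members with a special place in the ribosome the probe that stood for the gene did not pass the threshold. MRPL12 and MRPL10 form the flexible stalk with MRPL11, and MRPL12 is also known to bind the mitochondrial RNA polymerase. MRPL12 read 4.59 and 4.51 in Control, 4.48 and 4.42 in BT474-Var1 and 4.54 and 4.52 in BT474-Var4 cells, and MRPL10 read 3.77 and 3.72, 3.68 and 3.61, and 3.78 and 3.76. Their changes in BT474-Var1 cells were -0.10 ± 0.06 (adjusted p = 0.236) and -0.10 ± 0.05 (adjusted p = 0.233), while the change of MRPL11 of the same stalk was -0.58. A second, dimmer MRPL12 probe read 4.03 and 4.08 in Control and 3.84 and 3.82 in BT474-Var1 cells, and its change of -0.23 ± 0.05 was called (adjusted p = 0.0334). MRPL45, which lies by the exit tunnel at the inner membrane, read 8.36 and 8.32 in Control, 8.25 and 8.24 in BT474-Var1 and 8.26 and 8.37 in BT474-Var4 cells, with overlapping Control and BT474-Var4 arrays. Its second probe read 4.76 and 4.67, 4.36 and 4.35, and 4.72 and 4.89 in the same order, with a BT474-Var1 change of -0.36 ± 0.08 (adjusted p = 0.0283) and a difference between the variants of 0.45 ± 0.08 (adjusted p = 0.0141).

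MRPS18A, MRPS18B and MRPS18C are 3 relatives of the bacterial protein S18. MRPS18A read 3.23 and 3.12 in Control, 3.37 and 3.27 in BT474-Var1 and 3.25 and 3.33 in BT474-Var4 cells, and passed no test (adjusted p = 0.202, 0.303 and 0.796). MRPS18B differed by -0.31 ± 0.06 between BT474-Var4 and BT474-Var1 cells (adjusted p = 0.0191) and MRPS18C by 0.22 ± 0.05 (adjusted p = 0.032). Neither call was firm: the second MRPS18B probe differed by -0.11 (adjusted p = 0.562), and MRPS18C differed by 0.14 after quantile normalization (adjusted p = 0.0865) and by 0.14 after cyclic loess normalization (adjusted p = 0.102). MRPS18A and MRPS30 bear small subunit names but sit in the large subunit, and moving them there left the count of called genes as it was, since neither was called. MRPS30 read 2.94 and 2.92, 3.0 and 2.97, and 2.92 and 2.9. MRPS36, now counted with the 2-oxoglutarate dehydrogenase complex under the name KGD4, had BT474-Var4 arrays at 4.91 and 4.52 that lay above and below all the others, and passed no test on this probe (SE 0.14). Its second probe read 2.79 and 2.82 in Control, 2.48 and 2.38 in BT474-Var1 and 2.81 and 2.75 in BT474-Var4 cells, and there the BT474-Var1 change of -0.38 ± 0.06 (adjusted p = 0.0138) and the difference between the variants of 0.35 ± 0.06 (adjusted p = 0.0137) were called.

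DAP3, the GTP-binding protein of the small subunit known as MRPS29, was not among the members by name. It read 6.4 and 6.41 in Control, 6.29 and 6.31 in BT474-Var1 and 6.5 and 6.42 in BT474-Var4 cells, and its changes of -0.11 and 0.06 were not called (adjusted p = 0.186 and 0.486). MRPS31P5 was not called in any comparison (adjusted p from 0.837 to 0.932). Of 3 probes for MRPL23-AS1 only the one well above background on all 6 arrays was called: it read -3.04 and -3.22 in Control, -2.26 and -2.19 in BT474-Var1 and -2.5 and -2.58 in BT474-Var4 cells. Its changes from Control were 0.90 (adjusted p = 0.00502) and 0.59 (adjusted p = 0.015). After normexp background correction they were 0.32 and 0.18 and stayed called. The other 2 probes, not called, changed by -0.06 and -0.20 in BT474-Var1 cells and by -1.02 and -0.04 in BT474-Var4 cells. MRPL23 itself, a protein of the exit tunnel, read 3.5 and 3.48 in Control and 3.0 and 3.06 in BT474-Var1 cells, a change of -0.46 ± 0.05 (adjusted p = 0.00651).

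Some members start close to another gene on the opposite strand. In the RefSeq starts on GRCh38.p14, 69 of the 77 genes had an entry, 26 had a head-to-head neighbor within 1000 bases and 20 of these had a neighbor tested on the array. Of the 10 of them called in BT474-Var1 cells, the neighbor was called in the same direction for 2 and in the opposite direction for 1. In BT474-Var4 cells the neighbor of 4 of 6 called members moved the same way and of none the opposite way, and in BT474-Var4 against BT474-Var1 it was 3 of 11 and 2 of 11. Neighbors of uncalled members were called as well in BT474-Var4 cells, HIRA, NCAPD2, SKA3 and GGA3 lower and HELQ higher. Of all tested genes 20.7% were lower and 14.2% higher in BT474-Var1 cells. The shares were 14.6% and 10.2% in BT474-Var4 cells, and 21.0% and 20.9% between the variants. Whether neighbors moved together was not tested.

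MRPL18 and TCP1, a subunit of the cytosolic chaperonin, start 210 bases apart. TCP1 read 3.21 and 3.08 in Control, 3.03 and 3.1 in BT474-Var1 and 3.49 and 3.62 in BT474-Var4 cells. It was higher in BT474-Var4 cells by 0.41 ± 0.08 (adjusted p = 0.029), as MRPL18 was, but in BT474-Var1 cells its change was -0.08 ± 0.08 (adjusted p = 0.487) where MRPL18 fell. MRPS12 and SARS2, the mitochondrial seryl-tRNA synthetase, start 181 bases apart and were both lower in both variant populations. SARS2 changed by -0.34 for variant 1 (adjusted p = 0.0157) and -0.38 for variant 4 (adjusted p = 0.0174). The variant 1 change of MRPS12 was -0.27 (adjusted p = 0.0237), but -0.14 after quantile normalization, where it was not called (adjusted p = 0.112). MRPL27 and EME1, a DNA repair nuclease subunit, start 45 bases apart, and EME1 rose by 0.51 (adjusted p = 0.0108) in BT474-Var1 cells where MRPL27 fell. In BT474-Var4 cells both were lower, EME1 at -0.46 (adjusted p = 0.0199) and MRPL27 at -0.37 (adjusted p = 0.0129). MRPS6 shares its start with SLC5A3, a myo-inositol transporter whose reading frame lies in the same locus. SLC5A3 read 1.57 and 1.53 in Control, 1.43 and 1.55 in BT474-Var1 and 1.62 and 1.51 in BT474-Var4 cells, and its difference between the variants was 0.07 ± 0.07 (adjusted p = 0.466) where that of MRPS6 was 0.88.

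The 209 bases between the starts of TCP1 and MRPL18 (chr6:159789603-159789811, plus strand), the 250 bases before the start that MRPS6 shares with SLC5A3 (chr21:34073328-34073577, plus strand) and the 250 bases before the start of MRPL43 (chr10:100987498-100987747, minus strand) are printed 5′ to 3′ from RefSeq on GRCh38.p14, since they show a divergent start, a shared start and a start with one of the motifs searched. Capitals mark the motif.
TCP1 to MRPL18: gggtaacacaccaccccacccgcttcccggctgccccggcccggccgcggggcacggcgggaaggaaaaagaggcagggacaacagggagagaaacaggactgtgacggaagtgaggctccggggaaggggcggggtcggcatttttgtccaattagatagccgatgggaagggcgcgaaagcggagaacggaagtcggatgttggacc
MRPS6 and SLC5A3: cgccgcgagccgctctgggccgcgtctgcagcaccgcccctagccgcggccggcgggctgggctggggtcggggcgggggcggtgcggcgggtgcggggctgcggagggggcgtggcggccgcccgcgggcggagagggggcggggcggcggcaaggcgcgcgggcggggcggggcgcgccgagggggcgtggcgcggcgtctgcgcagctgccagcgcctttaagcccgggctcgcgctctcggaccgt
MRPL43: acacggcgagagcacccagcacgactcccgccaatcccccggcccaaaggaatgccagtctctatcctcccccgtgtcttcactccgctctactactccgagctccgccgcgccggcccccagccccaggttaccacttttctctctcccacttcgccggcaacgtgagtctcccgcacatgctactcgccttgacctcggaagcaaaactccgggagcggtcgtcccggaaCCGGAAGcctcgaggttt

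The letters of 3 motifs known from genes of mitochondrial proteins were searched on both strands from 250 bases before to 50 after each start. CCGGAAG, which ETS factors such as GABPA bind, was present in 29 of 69 member genes and in 12.2% of all 27305 genes with an entry. AAGATGGCG, from YY1 sites, was present in 13 (18.8%) against 2.14%, and GCGCATGCG, from NRF1 sites, in 3 (4.35%) against 2.34%. A gene was counted where any of its starts had a match. The set of all genes includes noncoding genes and genes not tested on the array, so it is unlike the members. Among members called lower in BT474-Var1 cells 11 of 24 genes (45.8%) held CCGGAAG. Those called higher with variant 4 than with variant 1 also held it in 45.8%, beside 29 of 69 for all members. A match is only a stretch of letters in the window. MRPL18 has 3 starts in the table, and the match counted for it lies before another start than the one shown.

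Other genes of mitochondrial gene expression were taken as lists, and the genes named from them were picked after their values were seen. Of 7 ribosomal proteins and partners whose names do not begin with MRPL or MRPS, 3 were lower in BT474-Var1 cells, and 1, OXA1L, after quantile normalization. OXA1L, which binds the ribosome and inserts its products into the inner membrane, had the widest change among them: it read 4.89 on both Control arrays, 4.13 and 4.12 in BT474-Var1 and 4.45 and 4.5 in BT474-Var4 cells, changes of -0.77 ± 0.05 (adjusted p = 0.00346) and -0.42 ± 0.05 (adjusted p = 0.011). Of 27 ribosome assembly and rRNA modification factors, 11 were lower and 2 higher in BT474-Var1 cells, or 7 lower and 2 higher after quantile normalization. In BT474-Var4 cells 4 were lower and 3 higher, shares near those of all tested genes. NGRN, a factor needed for the large rRNA, was lower by -0.78 and -0.35 (adjusted p = 0.0034 and 0.0149). RPUSD3, an RNA pseudouridine synthase homolog, lay on either side of Control like MRPL18, with changes of -0.26 for variant 1 and 0.26 for variant 4 (adjusted p = 0.0214 and 0.0286), but after quantile normalization its BT474-Var1 change was -0.17 (adjusted p = 0.0618).

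Of 15 translation factors and messenger-binding proteins, 11 were lower and none higher in BT474-Var1 cells, with a median change of -0.28, and 2 were lower and 2 higher in BT474-Var4 cells. After quantile normalization 5 were lower in BT474-Var1 cells. GFM1 and GFM2 followed the order of MRPL18 and MRPS6. GFM1 read 3.88 and 3.81 in Control, 3.43 and 3.44 in BT474-Var1 and 4.19 and 4.12 in BT474-Var4 cells, and GFM2 read 3.95 and 3.91, 3.6 and 3.51, and 4.4 and 4.34. The groups did not overlap in either, and the differences between the variants were 0.72 ± 0.06 (adjusted p = 0.0025) and 0.81 ± 0.06 (adjusted p = 0.00228). TACO1, an activator of the translation of 1 mitochondrial messenger, had a change of -0.72 ± 0.07 with variant 1 (adjusted p = 0.0049).

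Of 20 mitochondrial aminoacyl-tRNA synthetases and amidotransferase subunits, 10 were lower and 1 higher in BT474-Var1 cells, with a median change of -0.28, and 10 were lower and 1 higher after quantile normalization as well. In BT474-Var4 cells 5 were lower and 1 higher. Of 14 genes of mitochondrial transcription and RNA processing, 6 were lower and 1 higher in BT474-Var1 cells and 1 lower in BT474-Var4 cells. In BT474-Var1 cells 4 of the 14 were lower after quantile normalization and 3 after cyclic loess. TFAM, which packages mitochondrial DNA and starts its transcription, read 5.05 and 5.13 in Control, 4.54 and 4.42 in BT474-Var1 and 4.67 and 4.84 in BT474-Var4 cells, and its change in BT474-Var1 cells was -0.61 ± 0.09 (adjusted p = 0.0108). POLRMT, the RNA polymerase, was not called in any comparison (changes of 0.05, -0.08 and -0.14).

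The RNAs that the mitochondrial ribosome translates were on the array under 11 names of the list. In BT474-Var1 cells 7 were lower and 1 higher, in BT474-Var4 cells 1 was lower, and between the variants 9 were higher and 1 lower in BT474-Var4 cells. ND1 read 6.66 and 6.65 in Control, 5.45 and 5.5 in BT474-Var1 and 6.67 and 6.73 in BT474-Var4 cells, a change of -1.18 ± 0.05 in BT474-Var1 cells (adjusted p = 0.00269). ND6, encoded on the other strand of mitochondrial DNA from the rest, went the other way, from -0.28 and -0.22 in Control to 0.84 and 0.77 in BT474-Var1 and -0.67 and -0.78 in BT474-Var4 cells. Its changes were 1.06 ± 0.07 (adjusted p = 0.00339) and -0.47 ± 0.07 (adjusted p = 0.0145). After cyclic loess normalization 2 of the 11 were lower in BT474-Var1 cells.

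Of 9 regulators of mitochondrial biogenesis, 3 were lower and 1 higher in BT474-Var1 cells and 2 lower and 1 higher in BT474-Var4 cells. PPARGC1A, the coactivator PGC-1alpha, was the gene called higher in both: it read -1.14 and -1.03 in Control, -0.63 and -0.4 in BT474-Var1 and 0.16 and 0.06 in BT474-Var4 cells, changes of 0.57 ± 0.10 (adjusted p = 0.0182) and 1.2 ± 0.10 (adjusted p = 0.00587). GABPA, which binds the ETS motif, was not called (changes of -0.09 and 0.08). After quantile normalization 4 of the 9 were lower and 1 higher in BT474-Var1 cells, and 1 lower and 1 higher in BT474-Var4 cells.

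Of 75 tested nuclear genes for subunits of the respiratory chain and ATP synthase, 35 were lower and 1 higher in BT474-Var1 cells, with a median change of -0.20, and 31 were higher and 6 lower with variant 4 than with variant 1, with a median of 0.17. The members had medians of -0.16 and -0.14, and 0.17 and 0.13. After quantile normalization 15 of the 75, and after cyclic loess 9, were lower in BT474-Var1 cells, and with quantile 29 were higher between the variants. Of 81 proteins of the cytosolic ribosome, 8 were lower and 1 higher in BT474-Var1 cells, with a median change of -0.06, and 31 were lower and none higher in BT474-Var4 cells, with a median of -0.19, against 10 lower and 5 higher of the 77 members there. Between the variants 28 of the 81 were lower and 3 higher in BT474-Var4 cells. These counts rested on the scaling: after quantile normalization 6 of the 81 were lower in BT474-Var4 cells than in Control, and 12 were lower and 6 higher between the variants, where cyclic loess gave 36 lower and 3 higher. After cyclic loess normalization 12 were higher and 3 lower in BT474-Var1 cells than in Control, with a median of 0.10, so the direction there turned. The difference between these lists and the members was not tested.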

How the data were processed

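RNA from 2 arrays each of Control, BT474-Var1 and BT474-Var4 cells had been labeled with Cy3 and read by Agilent Feature Extraction 11.5.1.1 on probes placed on hg19. The deposited scanner files hold one-color intensity values, from which the software had already subtracted background. The authors also deposited a table of log2 values, shifted to the 75th percentile in GeneSpring per their methods. It differed from the values used here by a median of at most 0.00716 per array and served as an alternative. Its column medians lay between -3.65 and -3.28.

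The log2 processed intensity minus the 75th percentile of all non-control probes of its array was used here. Spots of a probe were averaged after outlier spots (63 to 128 per array) were left out. This left MRPL38 without a value on BT474-Var1 replicate A, and its fit used the other 5 arrays. A probe was tested where both arrays of at least 1 group were well above background, which held for 31858 probes. Between 49.7% and 59.1% of spots per array passed that mark and 0 were saturated. The number of arrays limits the precision. All 3 groups entered 1 limma fit (limma 3.58.1, R 4.3.3, with 3 residual degrees of freedom and 1.53 prior ones), and p-values were adjusted by Benjamini-Hochberg over all tested probes. On simulated data for BT474-Var1 against Control the fit recovered 79.5% of probes shifted by 2 and 49.5% of those shifted by 1 on the log2 scale. The shifted probes were drawn from all tested probes. Member changes in that comparison lay between -0.59 and 0.43, smaller than either shift, so these rates are not those of the members.

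Genes named were the 6 largest rises and falls per comparison among called genes with groups that did not overlap, any past 2-fold, and stalk proteins, the MRPS18 homologs, MRPS30, MRPS36, MRPL45, DAP3, the antisense RNA and the pseudogene. MRPL19, MRPL22, MRPL23, MRPL46, MRPS23, the neighbors of members, and genes named only as holding a call were picked after their values were seen. The members and lists were chosen with earlier results of these data known. Alternatives were another background correction, scaling, filter, probe rule, variance model, sample set, block or call rule, and leaving out each array.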

Additional observations from a re-analysis of the deposited data

Results flagged for a closer look

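By the fit's own test of BT474-Var4 against BT474-Var1 cells, the change from Control differed between the variant populations in 19 of the 28 genes named by rule. Some were named for being among the largest called differences in this comparison, so the count follows in part from that choice. Of all tested genes 20.9% were called higher and 21.0% lower. The calls of MRPL11, MRPL39, MRPS18C, MRPL27 and MRPL48 were lost under 2 of the 4 other scalings, and that of MRPL4 under 1. Higher in BT474-Var4 cells were MRPL18 (0.97 on the log2 scale), MRPS6 (0.88), MRPS15 (0.57), MRPS17 (0.48), MRPS7 (0.45), MRPL43 (0.38), MRPL11 (0.27), MRPL39 (0.23), MRPS18C (0.22), MRPL27 (0.20) and MRPL48 (0.20). Lower were MRPS16 (-0.53), MRPL2 (-0.52), MRPL57 (-0.46), MRPL30 (-0.41), MRPL55 (-0.40), MRPL14 (-0.32), MRPS18B (-0.31) and MRPL4 (-0.20). MRPL18 and MRPS6 were called on both sides of Control, lower in BT474-Var1 and higher in BT474-Var4 cells.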

How the results depend on the processing

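The 3 comparisons are given in this order: BT474-Var1 against Control, then BT474-Var4 against Control, then the variants against each other, where 3, 5 and 26 members were higher and 25, 10 and 9 lower. Quantile normalization gave 8, 10 and 13 higher and 15, 8 and 14 lower. Cyclic loess gave 7, 10 and 11 higher and 15 lower in the first. Normexp gave 44 and 20 lower in the first 2 and 12 and 45 higher in the last 2. Of all tested genes normexp called 26.9% and 20.7% lower in the first 2 and 14.7% and 27.0% higher in the last 2. With no filter on dim probes 0, 0 and 4 were higher and 3, 0 and 1 lower. With a trended, robust variance 5, 12 and 41 were higher and 39 and 26 lower in the first 2. With probes well above background on all 6 arrays 8 were higher in the second. With only the groups compared in the fit 2 and 12 were higher in the last 2. With a 2-fold rule 0 were called either way. The unmoderated test over the 3 groups named in the study's methods gave 3, 6 and 26 higher and 25, 12 and 10 lower after adjustment.

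The median of the large subunit in the 3 comparisons was -0.20, -0.04 and 0.21 with normexp, -0.05, 0.01 and 0.10 with quantile and -0.04, 0.02 and 0.08 with cyclic loess normalization. That of the small subunit was -0.21, 0.01 and 0.18, then -0.01, 0.03 and 0.04, then 0.00, 0.04 and 0.04. A shift to the array median gave -0.18 and -0.16 in the first and 0.20 and 0.16 in the last. The mean over probes gave -0.18 for the large subunit in the first and -0.06 for the small in the second, and placing MRPS18A and MRPS30 with the large subunit gave it -0.03 in the second. The cause was not tested.

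Leaving out 1 array, the lone array of its group being assumed to vary like the others, gave 0 to 2, 0 to 2 and 7 to 12 higher and 11 to 21, 0 to 10 and 5 to 7 lower. The large subunit medians ranged from -0.18 to -0.14, -0.07 to -0.03 and 0.15 to 0.19, and the small from -0.17 to -0.07, -0.04 to 0.00 and 0.09 to 0.16. Of the alternative values for single genes 1275 kept their side of the threshold, 36 gained and 201 lost a call, and 0 reversed.

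The letters A and B did not pair the arrays (correlations of deviations -0.012, 0.045 and -0.015). With the letter as a replicate block 2, 2 and 14 members were higher and 18, 6 and 7 lower. Probes near background have an imprecise level, as with 2 of the 3 probes of MRPL23-AS1, and the called probe was dim as well.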
